A study of Rattus norvegicus with 8 samples.

Results

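The rat major histocompatibility complex (MHC) genes carry the prefix RT1. Every row of the expression table whose symbol starts with RT1- was taken, together with 10 antigen presentation genes named one by one, namely B2m, Tap1, Tap2, Tapbp, Psmb8, Psmb9, Psmb10, Nlrc5, Ciita and Cd74. This gave 40 of 31699 rows, 30 of them RT1 rows, with 39 distinct symbols because RT1-S2 stands on 2 rows. By their names 21 RT1 rows are class I heavy chains and 9 are class II chains. The study asked how depletion of Piezo1, a mechanically gated cation channel, changes gene expression in stretched annulus fibrosus cells (AFCs), which form the outer ring of the intervertebral disc. AFCs of Sprague Dawley rats were pooled from 8 rats per isolation and cultured with 10% serum. They were infected over 24 h (multiplicity of infection, 20) with a control lentiviral vector (Lv-Ctrl group, n = 4) or with a short hairpin lentivirus directed against Piezo1 (Lv-Piezo1 group, n = 4). Both groups then received cyclic mechanical stretch (CMS) of 20% elongation at 0.5 Hz for 36 h, so that no sample was without virus or without stretch. The rats of the study's animal model were males aged 3 months, and no separate age is stated for the rats that gave the cells. By the methods a repeat was 1 pooled isolation whose cells received the different treatments, so the groups draw on the same pools, but neither the labels nor the methods tie a sample's number to a pool. The p-values below therefore measure the spread between these samples without pairing.

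MHC class I molecules consist of a polymorphic heavy chain and the invariant light chain beta-2-microglobulin (B2m), and they show peptides from the inside of nearly every nucleated cell to CD8 T cells. The peptides are cut by the proteasome, which can exchange its catalytic subunits for the immunoproteasome subunits Psmb8, Psmb9 and Psmb10, are pumped into the endoplasmic reticulum by Tap1 and Tap2, and are loaded with the help of tapasin (Tapbp). Class II molecules show peptides taken up from outside and are largely restricted to professional antigen-presenting cells, where the transactivator Ciita switches them on with their invariant chain Cd74, while Nlrc5 is the corresponding transactivator of class I genes.

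Values are TPM, a length-normalized measure of transcript abundance scaled to a fixed total per sample, from which the sequencing depth behind a value cannot be read. Piezo1 itself was higher in the samples labelled Lv-Piezo1, at 38.10, 37.74, 40.24 and 41.41 TPM against 31.10, 32.99, 26.68 and 29.46 TPM in Lv-Ctrl (log2 fold change 0.38, SE 0.06, adjusted p = 8.6e-04 from limma), and stayed higher, by 0.22 or more, under every alternative. The target therefore goes against its label, and every direction below refers to the samples labelled Lv-Piezo1 as they are named. Of the annulus fibrosus and fibrous cell markers, 11 of 12 were tested, while Tnmd was at or near 0. At an adjusted p below 0.05 from limma, 7 were higher and 3 lower, where 41.9% of all tested genes were higher and 16.3% lower. Thbs4 and Postn rose and Dcn fell by more than 1 in log2, and 7.67% of all tested genes changed at least that far with that p. Col1a1 was at 3282 ± 137 TPM in Lv-Ctrl and 5835 ± 103 TPM in Lv-Piezo1. Of 7 chondrocyte-like markers, Prg4 and Acan were higher and Sox9 did not pass, while Col2a1, Matn3 and Cnmd were below 1 TPM in all samples. Comp, at 0.738 ± 0.216 against 2.86 ± 0.221 TPM, reached the mean of 1 TPM needed for testing only through its higher group. It therefore had to differ and is not counted. The 8 endothelial markers with a row were below 1 TPM in all samples. Of 19 leukocyte markers with a row, 15 were below 1 TPM in all samples. Of these, 6 were listed at 0 throughout, among them Adgre1, C1qa, Cd3e and Cd163. Lyz2 and Spi1 reached at most 1.94 and 1.58 TPM. Itgax, at 2.6 ± 0.32 against 2.2 ± 0.25 TPM, did not pass (adjusted p = 0.15 from limma). Under median-ratio scaling and under quantile normalization 1 marker of the list was lower. The summed level of the list was 4.34 to 6.17 TPM in Lv-Ctrl and 15.98 to 17.47 TPM in Lv-Piezo1. This rise was carried by Cd68, a lysosomal macrophage marker at 0.955 ± 0.899 against 12.3 ± 0.901 TPM. Ptprc, the pan-leukocyte antigen, did not exceed a mean of 0.0025 TPM in either group. Whether leukocytes had a part in the MHC values was not tested.

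Of the 40 rows, 20 reached a mean of 1 TPM over the 8 samples and were tested among 13103 genes, on log2(TPM + 1), which understates the change of weakly expressed genes. RT1-N2 reached that mean only through its higher group, so it had to differ and is left out of the counts that follow, which cover the other 19 rows. At an adjusted p below 0.05 from limma, 10 of the 19 were higher and 7 lower in Lv-Piezo1, where 41.9% of all tested genes were higher and 16.3% lower. Of these rows, Tap2, Psmb9, RT1-M3-1 and Nlrc5 lay near the threshold, with adjusted p of 0.032 to 0.048. With an additional fold threshold of 1 in log2, hereafter called, 2 were higher (RT1-T24-4 and RT1-S3) and 1 lower (RT1-CE11), and RT1-N2 passed as well. The called share of all tested genes was 7.67%, made up of 4.91% higher and 2.76% lower. Of all called genes 64.1% were higher, and 52.3% and 48.8% were higher under median-ratio scaling and quantile normalization. The groups did not overlap in 14 of the 19, against 54.2% of all tested genes. The median log2 fold change was 0.18 over the 19 rows and 0.14 over all tested genes. When the samples were put on a common median-ratio scale, which brought the median of all genes to -0.0046, the 19 split into 6 higher and 7 lower (all genes, 27.9% and 27.9%), and quantile normalization gave 7 and 8 (all genes, 28.7% and 27.3%). The dominant class I heavy chain and its light chain fell, while RT1-N3, RT1-S3 and RT1-T24-4, class Ib genes that adjoin each other, rose. Psmb8 rose by 0.66 on the log2 scale, and the other peptide supply genes changed by 0.20 or less in either direction. The plot of the 20 fold changes lays this out. In bulk RNA a change in the share of cells expressing a gene and a change in RNA per cell cannot be told apart.

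**Figure D1:**
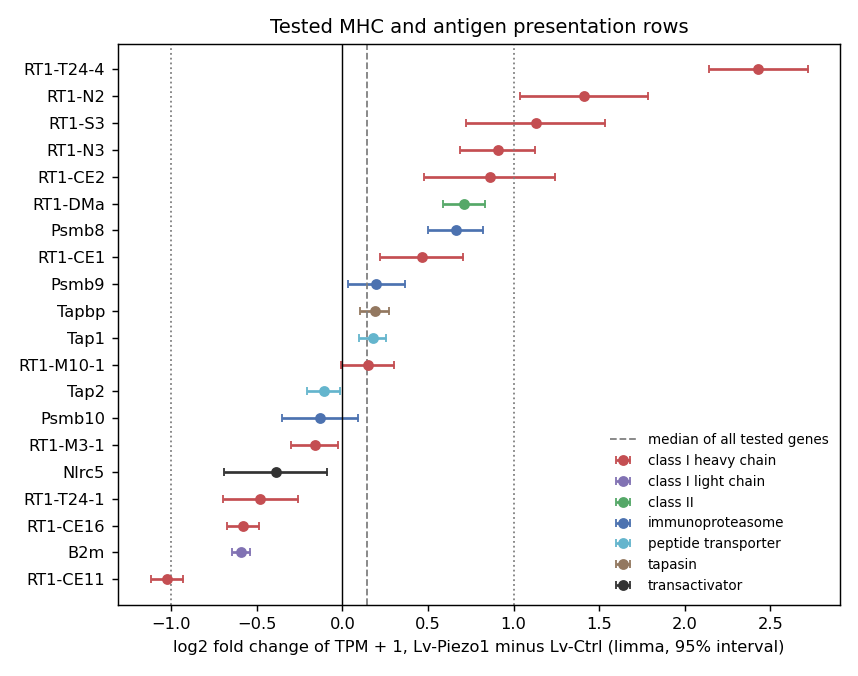
Log2 fold change of TPM + 1 (x axis, Lv-Piezo1 minus Lv-Ctrl, limma, bars are 95% intervals) for the 20 tested rows (y axis), coloured by role, with n = 4 per group. The dashed line is the median of all tested genes at 0.14 and the dotted lines mark a change of 1. Upward 3 rows exceed it (RT1-T24-4 at 2.43), among them RT1-N2, which had to differ, and downward 1 row does (RT1-CE11 at -1.03).

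The promoters of 4 members, B2m and RT1-CE16 for the fall and RT1-N3 and RT1-S3 for the rise, are shown as examples. They let a reader see which regulatory letters each carries and do not stand for all rows of their direction. Each is RefSeq sequence of build GRCr8 from 250 bases before to 50 bases after the annotated start, read 5′ to 3′ in the direction of the gene, at chr3:129549080-129549379 (plus strand), chr20:3265394-3265693 (minus strand), chr20:2666239-2666538 (plus strand) and chr20:2675278-2675577 (plus strand). Capitals mark matches, in either orientation, to GAAANNGAA (letters of an interferon-stimulated response element), GGGATTCCC (an NF-kB type site), ATTGG (a reversed CCAAT box) and TGACG (the core of a cyclic AMP response element).
B2m: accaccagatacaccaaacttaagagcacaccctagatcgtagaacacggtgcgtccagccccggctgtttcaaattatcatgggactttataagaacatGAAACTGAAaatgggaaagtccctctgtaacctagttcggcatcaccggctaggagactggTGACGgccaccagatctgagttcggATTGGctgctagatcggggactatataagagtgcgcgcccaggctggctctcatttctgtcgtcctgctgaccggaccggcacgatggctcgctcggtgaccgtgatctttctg
RT1-CE16: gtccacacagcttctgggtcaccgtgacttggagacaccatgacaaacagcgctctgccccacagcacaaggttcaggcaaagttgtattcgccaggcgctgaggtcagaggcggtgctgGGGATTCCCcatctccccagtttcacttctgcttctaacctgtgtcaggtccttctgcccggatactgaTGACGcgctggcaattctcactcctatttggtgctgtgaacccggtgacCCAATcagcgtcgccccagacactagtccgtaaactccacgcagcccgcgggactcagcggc
RT1-N3: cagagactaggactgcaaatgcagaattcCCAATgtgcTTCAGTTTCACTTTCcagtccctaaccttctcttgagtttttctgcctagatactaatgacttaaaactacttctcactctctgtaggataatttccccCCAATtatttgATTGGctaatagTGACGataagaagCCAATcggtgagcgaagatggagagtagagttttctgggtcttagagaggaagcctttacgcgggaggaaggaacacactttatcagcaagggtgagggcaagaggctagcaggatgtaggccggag
RT1-S3: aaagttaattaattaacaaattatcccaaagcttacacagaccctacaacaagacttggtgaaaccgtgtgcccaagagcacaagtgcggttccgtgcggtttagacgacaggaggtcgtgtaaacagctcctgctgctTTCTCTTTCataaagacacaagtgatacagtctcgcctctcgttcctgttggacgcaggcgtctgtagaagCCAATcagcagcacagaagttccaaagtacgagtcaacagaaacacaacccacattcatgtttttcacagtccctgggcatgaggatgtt
B2m carried GAAANNGAA with its first base at -150 from the start, RT1-S3 carried it at -111, and RT1-N3 carried it at -212 and -206 in overlapping copies. In RT1-CE16 the spelling GAAANNGAA was not found in the window, and GGGATTCCC stood at -130. Other spellings of an interferon-stimulated response element were not searched, so it was not tested whether RT1-CE16 lacks such an element. Over the 30 members whose promoter could be matched by symbol, GAAANNGAA was found in 9, against 9.71% of all 33469 promoters. Those 9 were B2m, Tap1, Tap2, Tapbp, Psmb8, Psmb10, RT1-N3, RT1-S2 and RT1-S3, which include rows that were higher, rows that were lower and rows that did not pass. RT1-T24-4, the largest increase, matched none of the 4 spellings, and RT1-N2 and RT1-DMa, also higher, matched ATTGG alone. ATTGG was found in 21 of the 30 (37.5% of all promoters), TGACG in 7 (21.2%) and GGGATTCCC in RT1-CE16 alone (0.365%). A match is a description of letters and not a site of binding. A missing match to GAAANNGAA, in these counts as well, does not show that a promoter is without an interferon-stimulated response element.

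RT1-CE16 (ENSRNOG00000065254) was the main class I heavy chain of these cells and fell by a margin far wider than its spread. Its level was 727.35, 706.02, 771.85 and 677.47 TPM in Lv-Ctrl and 471.18, 497.71, 476.10 and 481.56 TPM in Lv-Piezo1. All 4 Lv-Piezo1 samples lay below all 4 Lv-Ctrl samples, at 482 ± 11.5 against 721 ± 39.8 TPM (log2 fold change -0.58, SE 0.04, adjusted p = 3.6e-06 from limma). Its light chain B2m (ENSRNOG00000017123) stood at 827.04, 820.77, 814.26 and 809.34 TPM in Lv-Ctrl and 536.56, 544.88, 548.73 and 536.37 TPM in Lv-Piezo1. The B2m samples within a group lay within a narrow band, and the means of 818 ± 7.71 and 542 ± 6.17 TPM gave a log2 fold change of -0.59 (SE 0.02, adjusted p = 7.9e-08 from limma). Both stayed lower under median-ratio scaling, at -0.74 for RT1-CE16 and -0.76 for B2m, and under quantile normalization, at -0.53 and -0.56. B2m TPM per RT1-CE16 TPM was 1.14 ± 0.0597 in Lv-Ctrl and 1.12 ± 0.0257 in Lv-Piezo1, with overlapping samples, so light chain and main heavy chain lost nearly the same share of their level.

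The sum of the other class I rows did not fall with it. The summed TPM of the 21 heavy chain rows was 910 ± 42.4 in Lv-Ctrl and 691 ± 17.2 in Lv-Piezo1, but without RT1-CE16 it was 189 ± 3.61 and 210 ± 6.35, with every Lv-Piezo1 sample above every Lv-Ctrl sample. This increase of 10.9% was about the size of the median shift of all tested genes, and it combined opposite changes, since RT1-CE11, RT1-T24-1 and RT1-M3-1 were lower and other rows higher. RT1-CE16 made up 79.2% ± 0.726 of the heavy chain sum in Lv-Ctrl and 69.7% ± 0.346 in Lv-Piezo1.

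**Figure D2:**
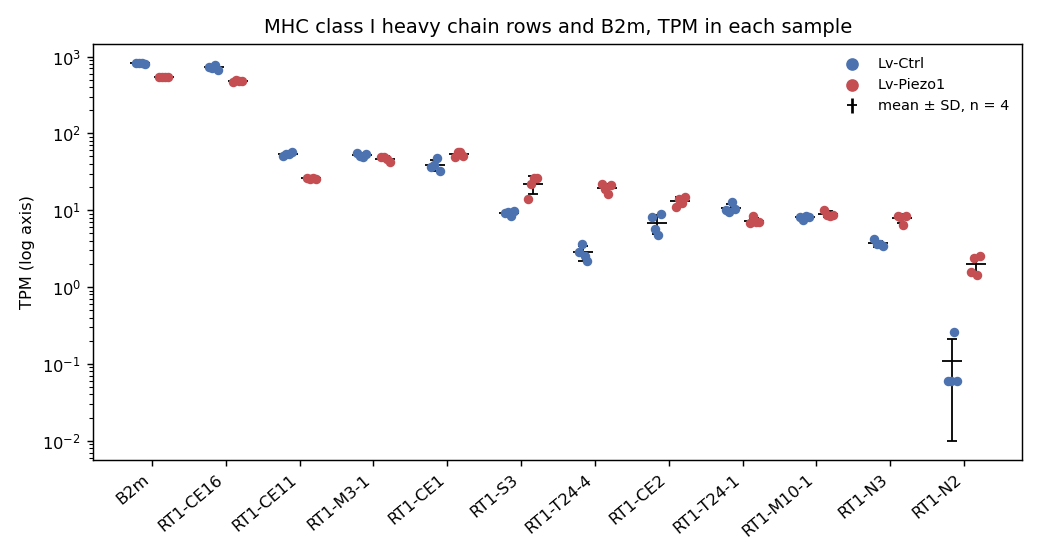
TPM in each sample (y axis, log scale) of B2m and the 11 tested class I heavy chain rows (x axis), with the mean and SD of the 4 samples of each group. B2m and RT1-CE16 lie near the top and are lower in Lv-Piezo1. RT1-CE1, RT1-CE2, RT1-S3, RT1-T24-4 and RT1-N3 are higher in Lv-Piezo1 without overlap, and so is RT1-N2, which had to differ. Of all tested genes 54.2% did not overlap between the groups.

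RT1-CE11 was the called decrease. This heavy chain row, which the table describes as a classical (class Ia) locus, was at 51.42, 54.07, 53.34 and 57.06 TPM in Lv-Ctrl and at 26.61, 25.45, 26.47 and 25.30 TPM in Lv-Piezo1. The Lv-Piezo1 samples held about the same level as each other and all lay below Lv-Ctrl (log2 fold change -1.03, SE 0.04, adjusted p = 9.3e-08 from limma). A row without a symbol (ENSRNOG00000048951) that the table describes as CE11-like, not itself a member, went the same way, from 10.3 ± 2.19 to 3.61 ± 0.603 TPM. The sum of both rows was 64.2 ± 2.88 TPM in Lv-Ctrl and 29.6 ± 0.986 TPM in Lv-Piezo1. Whether reads moved between RT1-CE11 and other class I rows was not tested. RT1-CE14 and RT1-CE15, below the filter and not tested, stood at 1.07 ± 0.0906 against 0.540 ± 0.0864 TPM and at 0.903 ± 0.0866 against 0.725 ± 0.0173 TPM, without overlap.

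A pair of rows of the same name family went up. RT1-CE1, also described as a class Ia locus, was at 36.18, 38.53, 47.47 and 32.26 TPM in Lv-Ctrl and at 48.93, 56.49, 56.63 and 50.63 TPM in Lv-Piezo1. The lowest Lv-Piezo1 sample was just above the highest Lv-Ctrl sample (log2 fold change 0.46, SE 0.11, adjusted p = 0.0050 from limma), and under median-ratio scaling the row did not pass (0.30, adjusted p = 0.067 from limma). RT1-CE2 was at 8.06, 5.73, 4.81 and 8.80 TPM in Lv-Ctrl and at 10.95, 14.12, 12.35 and 14.70 TPM in Lv-Piezo1. Its groups did not overlap either (log2 fold change 0.86, SE 0.17, adjusted p = 0.0020 from limma), and it passed under both scalings. Class I heavy chains are near-identical paralogs, and the symbols of RT1-CE1, RT1-CE2, RT1-CE11 and the second RT1-S2 row do not match the locus in their descriptions, so how reads were divided among these rows is uncertain.

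RT1-T24-4, RT1-S3 and RT1-N3, the 3 largest increases among the 19 rows, lay together in the class Ib region, which encodes less polymorphic heavy chains. In the RefSeq gene order of chromosome 20 no gene stands between them, and RT1-N2 and RT1-S2 are the members before RT1-N3. RT1-T24-4 (ENSRNOG00000042905) was at 2.89, 3.63, 2.54 and 2.21 TPM in Lv-Ctrl and at 21.69, 18.85, 16.25 and 21.21 TPM in Lv-Piezo1. Its groups were far apart, at 2.82 ± 0.609 and 19.5 ± 2.50 TPM (log2 fold change 2.43, SE 0.13, adjusted p = 4.9e-07 from limma). RT1-S3 was at 9.14, 9.55, 8.48 and 9.87 TPM in Lv-Ctrl and at 13.79, 21.86, 26.45 and 26.11 TPM in Lv-Piezo1. The first Lv-Piezo1 sample was the lowest of its group but above every Lv-Ctrl sample (log2 fold change 1.13, SE 0.18, adjusted p = 5.5e-04 from limma). Under median-ratio scaling and quantile normalization RT1-S3 stayed higher but at 0.98 and 0.97 was below the threshold of 1.

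RT1-N3 was at 4.17, 3.59, 3.60 and 3.41 TPM in Lv-Ctrl and at 8.45, 8.21, 6.34 and 8.33 TPM in Lv-Piezo1. It rose without overlap but just short of the fold threshold (log2 fold change 0.91, SE 0.10, adjusted p = 4.8e-05 from limma), and with a pseudocount of 0.1 in place of 1 it reached 1.06 and was called. RT1-N2 was at 0.06, 0.06, 0.26 and 0.06 TPM in Lv-Ctrl and at 1.57, 2.37, 1.45 and 2.54 TPM in Lv-Piezo1 (log2 fold change 1.41, SE 0.16). No p is given for RT1-N2, because the filter it passed through its higher group meant that it had to differ. Both RT1-S2 rows were below the filter, the first at 0.0575 ± 0.115 against 0.830 ± 0.377 TPM and the second at 0.0200 ± 0.0400 against 0.450 ± 0.207 TPM, and neither overlapped between the groups.

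The summed TPM of RT1-N2, RT1-N3, RT1-S3 and RT1-T24-4 was 15.9 ± 0.848 in Lv-Ctrl and 51.4 ± 5.22 in Lv-Piezo1, or 1.75% ± 0.148 and 7.43% ± 0.706 of the heavy chain sum. These rows were each already described as higher, RT1-N2 among them, so the rise of their sum follows from that choice. The heavy chain sum also fell, which raises the share. The members on either side of this run did not share the increase. RT1-T18 was listed at no more than 0.16 TPM. RT1-T24-1, with 9 other genes between it and RT1-T24-4, was at 9.96, 9.37, 12.74 and 10.27 TPM in Lv-Ctrl and at 6.85, 8.30, 6.96 and 7.00 TPM in Lv-Piezo1. It fell without overlap (log2 fold change -0.48, SE 0.10, adjusted p = 0.0023 from limma), the opposite way to its namesake, and the 2 T24 rows may share reads as paralogs.

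**Figure D3:**
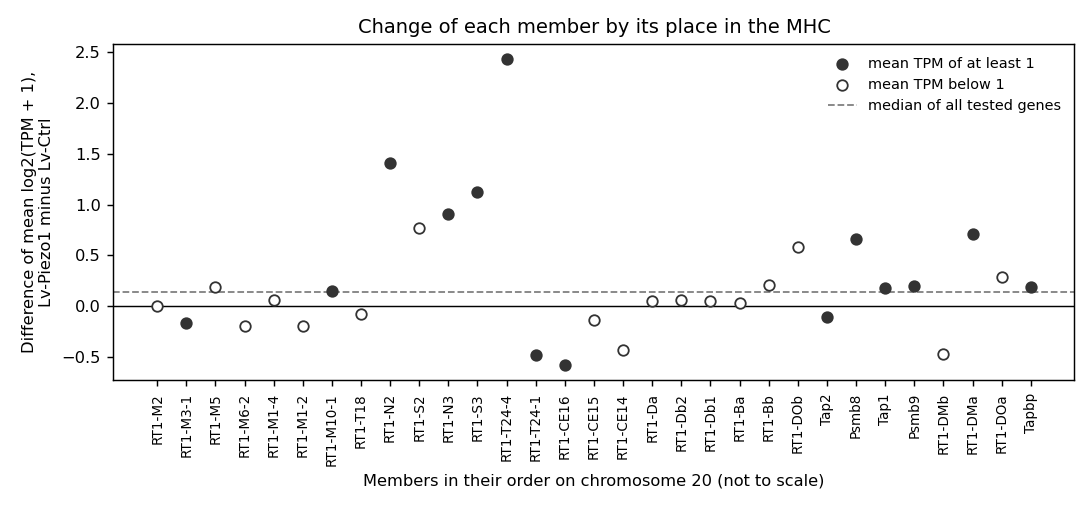
Difference of mean log2(TPM + 1) between Lv-Piezo1 and Lv-Ctrl (y axis) for the 31 members placed on chromosome 20, in RefSeq gene order (x axis, ranks and not distances). Filled points passed the filter of 1 TPM and open points did not. The run from RT1-N2 to RT1-T24-4 lies above the other members, and RT1-T24-1 and RT1-CE16 next to it lie below 0. RT1-N2 passed the filter only through its higher group and had to differ.

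The class Ib genes of the M region took small changes. RT1-M3-1, whose mouse counterpart presents N-formylated bacterial and mitochondrial peptides, was at 55.62, 50.09, 49.59 and 53.89 TPM in Lv-Ctrl and at 49.65, 48.61, 46.57 and 41.97 TPM in Lv-Piezo1. The groups overlapped by 1 sample (log2 fold change -0.16, SE 0.06, adjusted p = 0.047 from limma), and the adjusted p was above 0.05 in 6 of the 8 fits that each left out 1 sample, so this decrease is at the edge of what the spread allows. RT1-M10-1, annotated as a noncoding RNA in RefSeq, was at 8.08, 7.43, 8.43 and 8.25 TPM in Lv-Ctrl and at 10.13, 8.76, 8.43 and 8.78 TPM in Lv-Piezo1 and did not pass (log2 fold change 0.15, SE 0.07, adjusted p = 0.094 from limma; -0.04 under quantile normalization). The other 10 class I rows were not tested. None exceeded 1.16 TPM in any sample, and RT1-M2 was listed at 0 in all 8.

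All 6 genes that supply peptides to class I molecules were expressed, and the largest change among them was in Psmb8. Psmb8, the immunoproteasome counterpart of Psmb5, was at 11.90, 13.24, 12.49 and 14.71 TPM in Lv-Ctrl and at 19.28, 22.23, 21.48 and 21.98 TPM in Lv-Piezo1. Every Lv-Piezo1 sample was higher (log2 fold change 0.66, SE 0.07, adjusted p = 5.2e-05 from limma), and the gene passed under both scalings at 0.51 and 0.50. Psmb9, the counterpart of Psmb6, was at 14.99, 12.87, 15.05 and 13.60 TPM in Lv-Ctrl and at 14.65, 17.23, 17.78 and 15.83 TPM in Lv-Piezo1. These groups overlapped (log2 fold change 0.20, SE 0.07, adjusted p = 0.044 from limma), the p was above 0.05 in 5 of the 8 fits without 1 sample, and the change was 0.05 and 0.03 under the scalings. Psmb10, the counterpart of Psmb7, was at 8.18, 7.82, 8.67 and 8.08 TPM in Lv-Ctrl and at 7.60, 9.11, 6.27 and 6.83 TPM in Lv-Piezo1 (log2 fold change -0.13, SE 0.10, adjusted p = 0.29 from limma), and under quantile normalization it passed as lower (-0.32, adjusted p = 0.041 from limma).

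Set against their standard counterparts, the immunoproteasome subunits remained a minority. Psmb8 was 5.98% ± 0.644 of the summed TPM of Psmb8 and Psmb5 in Lv-Ctrl and 10.3% ± 0.727 in Lv-Piezo1, without overlap. For Psmb9 with Psmb6 the share was 5.65% ± 0.259 and 6.99% ± 0.471, also without overlap. For Psmb10 with Psmb7 it was 3.04% ± 0.0604 and 3.12% ± 0.370, with overlap. Whether the 3 inducible subunits, which enter new proteasomes together, differed in their change was not tested.

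**Figure D4:**
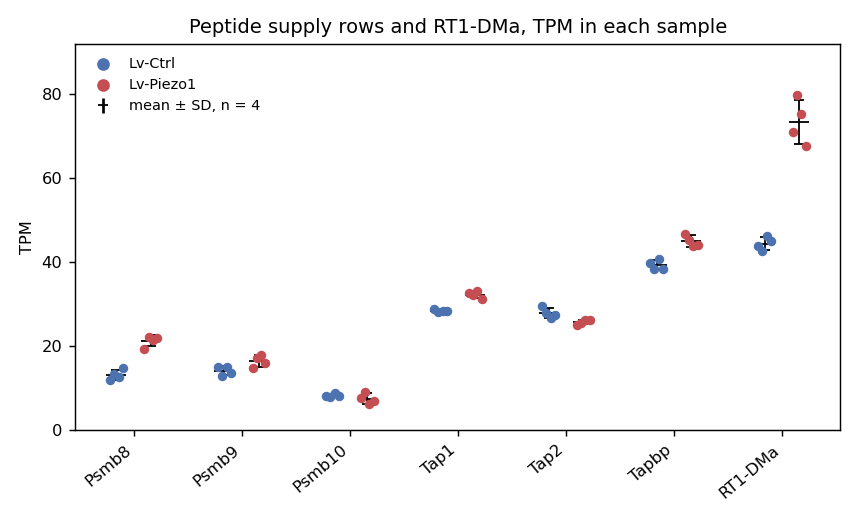
TPM in each sample (y axis, linear from 0) of the immunoproteasome subunits, the peptide transporter, tapasin and RT1-DMa (x axis), with the mean and SD of the 4 samples of each group. Psmb8, RT1-DMa, Tap1 and Tapbp are higher in every Lv-Piezo1 sample than in every Lv-Ctrl sample. Tap2 is lower without overlap, and Psmb9 and Psmb10 overlap.

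Tap1 and Tap2, which form the peptide transporter as a dimer, took opposite signs. Tap1 was at 28.73, 28.15, 28.32 and 28.37 TPM in Lv-Ctrl and at 32.59, 32.10, 33.19 and 31.10 TPM in Lv-Piezo1 (log2 fold change 0.18, SE 0.03, adjusted p = 0.0020 from limma). Tap2 was at 29.48, 27.88, 26.64 and 27.33 TPM in Lv-Ctrl and at 25.09, 25.41, 26.13 and 26.19 TPM in Lv-Piezo1 (log2 fold change -0.11, SE 0.04, adjusted p = 0.048 from limma). Neither gene overlapped between the groups, and Tap1 TPM per Tap2 TPM went from 1.02 ± 0.0381 to 1.25 ± 0.0476. The rise of Tap1 was near the median of all genes and was 0.02 (adjusted p = 0.72 from limma) under median-ratio scaling, where Tap2 was lower at -0.27 (adjusted p = 1.4e-04 from limma). Without a sample in turn, Tap2 on the main scale lost its p in 7 of 8 fits. Tapbp, which bridges the transporter to the empty class I molecule, was at 39.80, 38.38, 40.64 and 38.38 TPM in Lv-Ctrl and at 46.79, 45.25, 43.76 and 44.03 TPM in Lv-Piezo1. All 4 Lv-Piezo1 samples were higher (log2 fold change 0.19, SE 0.04, adjusted p = 0.0021 from limma), but under median-ratio scaling the change was 0.03 (adjusted p = 0.64 from limma).

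The row listed as Nlrc5 was at 532.73, 658.12, 843.02 and 797.05 TPM in Lv-Ctrl and at 567.13, 531.27, 475.20 and 556.68 TPM in Lv-Piezo1. This level is close to that of RT1-CE16, and TPM gives no means to see whether all these reads belong to the gene. The Lv-Ctrl samples were widely spread, and the first of them lay inside the Lv-Piezo1 range. The log2 fold change was -0.39 (SE 0.13, adjusted p = 0.032 from limma), an exact permutation test (two-sided, 70 relabelings) gave p = 0.086, and the adjusted p was above 0.05 in 5 of the 8 fits without 1 sample. Ciita was at 0.11, 0.08, 0.11 and 0.23 TPM in Lv-Ctrl and at 0.31, 0.45, 0.30 and 0.42 TPM in Lv-Piezo1. Its groups did not overlap, but it was below the filter and not tested.

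The class II genes were nearly silent apart from 1 chain. RT1-DMa, which with RT1-DMb forms the chaperone that exchanges peptides on class II molecules, was at 43.90, 42.54, 46.19 and 45.09 TPM in Lv-Ctrl and at 70.92, 79.90, 75.31 and 67.72 TPM in Lv-Piezo1. It rose in every sample (log2 fold change 0.71, SE 0.05, adjusted p = 5.2e-06 from limma) and passed under both scalings at 0.55 and 0.61. Its partner RT1-DMb was at 1.12 ± 0.550 and 0.505 ± 0.211 TPM, with overlap, so the 2 chains of this heterodimer differed in level by a wide margin in both groups. The 8 other class II rows, RT1-DMb included, summed to 1.84 ± 0.532 TPM in Lv-Ctrl and 2.34 ± 0.487 TPM in Lv-Piezo1, and none exceeded 1.87 TPM. RT1-Da and RT1-Ba, the alpha chains of the class II molecules proper, were at or below means of 0.0400 and 0.0450 TPM. RT1-DOb, a chain of the DM inhibitor, was at 0.05 ± 0.058 against 0.575 ± 0.0900 TPM, without overlap. The invariant chain Cd74 was at 0.31, 0.07, 0.27 and 0 TPM in Lv-Ctrl and at 0.80, 0.54, 0.42 and 0.15 TPM in Lv-Piezo1, with overlap.

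The other genes of the pathway were described by lists. Of 14 tested interferon and NF-kB inputs to MHC genes, 10 were higher and 0 lower at an adjusted p below 0.05 from limma and 0 were called, with a median of 0.29, where the shares of all tested genes given above were 41.9% higher and 16.3% lower. This split moved with the scale, to 8 higher and 3 lower under median-ratio scaling and 7 and 2 under quantile normalization. The list's largest changes were in Socs1, a feedback inhibitor of interferon signaling, from 2.45 ± 0.634 to 4.47 ± 0.897 TPM (0.67), and in Irf1, an interferon-induced activator of class I genes, from 6.75 ± 0.236 to 10.2 ± 0.976 TPM (0.53). Of 10 tested enhanceosome genes, whose products assemble on MHC promoters, 1 was higher and 1 lower (median 0.07), but both scalings gave 0 higher and 3 lower, with medians of -0.07 and -0.10. The largest of these were Rfx5, at 13.3 ± 3.33 and 16.7 ± 4.01 TPM and not past the test, and Nfyc, which fell from 14.3 ± 1.22 to 11.7 ± 1.07 TPM.

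Over all tested genes 41.9% were higher and 16.3% lower. Under median-ratio scaling these shares were 27.9% and 27.9%, and under quantile normalization 28.7% and 27.3%. Among the 10 tested proteasome activator and standard subunit genes, 1 was higher and 6 lower (median -0.17), and the scalings gave 1 higher with 8 and 7 lower. The largest decreases were in Psme1, a subunit of the interferon-inducible activator PA28, from 137 ± 3.88 to 94.9 ± 4.35 TPM (-0.53), and in Psma7, a structural subunit, from 501 ± 30.5 to 365 ± 13.9 TPM (-0.46). Of 12 tested genes of class I folding and peptide trimming, 2 were higher and 3 lower (median -0.04), and median-ratio scaling gave 0 and 9, quantile normalization 1 and 3. The largest changes in that list were in Sec61g, a subunit of the translocon, which fell from 420 ± 71.6 to 326 ± 20.3 TPM, and in Uggt1, a glycoprotein folding sensor, at 11.6 ± 2.46 and 14.1 ± 1.80 TPM and not past the test. Of 10 tested genes of class II loading and turnover, 2 were higher and 4 lower (median -0.10), and the scalings gave 1 and 7 (median -0.26) and 1 and 5 (median -0.11). The largest changes were in the lysosomal proteases Ctsl, which fell from 905 ± 35.2 to 628 ± 15.2 TPM, and Lgmn, which rose from 228 ± 4.47 to 325 ± 3.33 TPM.

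Outside the classical pathway, 6 costimulatory and inhibitory ligands were tested, with 4 higher, 0 lower and 2 called, against 41.9% higher, 16.3% lower and 7.67% called of all tested genes, and both scalings also gave 4 and 0. Icam1, the adhesion ligand of T cells, went from 76.5 ± 2.82 to 164 ± 2.88 TPM (log2 fold change 1.09) and Cd80, which engages CD28, from 1.37 ± 0.162 to 3.80 ± 0.457 TPM (1.02). Both lay just above the fold threshold of 1, and whether they stayed called under the scalings was not examined. Cd86, the other ligand of CD28, was listed at 0 in all samples. Of 5 tested MHC class I-like genes without an RT1 name, 1 was higher and 1 lower (1 and 2 under both scalings), namely Procr, the endothelial protein C receptor, from 75.3 ± 2.34 to 137 ± 3.35 TPM, and Cd1d1, which presents lipids, from 9.65 ± 0.681 to 8.06 ± 0.553 TPM.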

How the data were processed

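RNA-seq values of 8 samples, 4 per group, were used as deposited. The authors mapped filtered reads to the rat genome with HISAT2 and assembled transcripts with StringTie. The deposited unit is TPM, given to 2 decimals beside group means made by the authors, while the methods name FPKM. The submitters' processing notes name mm10, a mouse build, and DESeq2 with no role. The rat build, the annotation and the use of strand in counting are not given in the sources used here. No count model was fitted, because TPM are not counts.

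Log2(TPM + 1) of the 13103 rows with a mean of at least 1 TPM was compared with limma 3.58.1 in R 4.3.3 (trended empirical Bayes, Benjamini-Hochberg adjustment over all 13103, no block), and called rows passed an adjusted p of 0.05 and a fold threshold of 1 in log2. The fit was tested on simulated data. Values are mean ± SD (n = 4). Samples were given singly for called members, for RT1 rows with a mean of at least 5 TPM, and for the rows named one by one, and in other lists called genes or else the 2 largest changes were named. Members and lists were chosen with earlier results of these data known. Lists were written from general knowledge and no set test was run. RefSeq (GRCr8) gave gene order and promoters, matched by symbol. Alternatives were another pseudocount, filter, scaling, moderation, block and threshold, and each sample left out.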

Additional observations from a re-analysis of the deposited data

Results flagged for a closer look

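In 3 of the 40 combinations of a tested row and a group, 1 sample lay apart from the other 3 by Dixon's criterion for 4 samples, which chance meets in about 1 of 20 groups. RT1-N3 was at 6.34 TPM in the third Lv-Piezo1 sample, below its companions. RT1-N2 was at 0.26 TPM in the third Lv-Ctrl sample, where the other 3 were at 0.06 TPM. RT1-T24-1 was at 8.30 TPM in the second Lv-Piezo1 sample, above its companions. In each case the sample stayed on its group's side of the other group.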

How the results depend on the processing

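Of 314 alternative values for the 20 tested members and Piezo1, 310 kept their direction and their side of the call. Most of these rows were not called on the main scale, so this count says little about whether their p held. Tap1, Tapbp and Psmb9 are counted as kept under median-ratio scaling, where their adjusted p from limma was 0.72, 0.64 and 0.66. RT1-S3 fell below the fold threshold under median-ratio scaling (0.98) and quantile normalization (0.97), RT1-N3 passed it with a pseudocount of 0.1 (1.06), and RT1-M10-1, not past the test on any scale, turned to -0.0360 under quantile normalization. Without a fold threshold, 18 members passed, RT1-N2 included, 11 higher and 7 lower, and 7626 of all genes instead of 1005. Leaving RT1-N2 aside, 10 of the 19 members were higher and 7 lower, where 41.9% of all tested genes were higher and 16.3% lower. With a mean of at least 5 TPM, 628 of all genes were called because fewer were tested. Leaving out each sample in turn changed no call of a member (4 to 4, RT1-N2 included, with 1006 to 1030 of all genes). Replicate numbers did not pair the samples (correlations of same-numbered deviations -0.06 to -0.01), and neither labels nor methods tie a number to a cell pool. A replicate block gave 4 called members, RT1-N2 included, and 1004 genes. At an adjusted p below 0.05 from limma alone, the block gave 9 of the 19 members other than RT1-N2 as higher and 4 as lower instead of 10 and 7. Over all 13103 tested genes it gave 5017 higher and 1954 lower instead of 5489 and 2137. Tap2 (0.13), Psmb9 (0.078), RT1-M3-1 (0.068) and Nlrc5 (0.057) no longer passed. TPM keeps no depth, so counting error could not be given, and rows under about 1 TPM are values only. Paralogous RT1 rows may share reads.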
